A study of Mus musculus with 10 samples.

Results

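The genes described here are 8 kallikreins (Klk5, Klk6, Klk7, Klk8, Klk10, Klk11, Klk13 and Klk14), the kallikrein inhibitor gene Spink5 and the substrate gene Cdsn. They were taken by name, 10 of the 49671 genes in the count files, and all 10 passed the filter on low counts that left 18060 genes for testing. Poly(A) RNA of whole skin was sequenced from 5 mice homozygous for the Npytm2Rpa allele of the B6;129S4-Npytm2Rpa/J strain (NPY tet/tet, called NPYtet here; 3 labelled female, 2 male) and from 5 wildtype siblings (NPY +/+, called WT; 2 labelled female, 3 male). All mice were 22 weeks old, no treatment is named, each library comes from 1 mouse, and the series title describes the allele as an overexpression of Npy, the gene of neuropeptide Y. The sources used here do not give the body site of the skin or its hair cycle stage.

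Kallikreins of the skin are secreted serine proteases. The cells of the outermost epidermal layer are held together by corneodesmosomes, and shedding of these cells needs the proteases to cut corneodesmosin, desmoglein 1 and desmocollin 1. Spink5 encodes LEKTI, a secreted protein of many inhibitor domains that holds some of the skin kallikreins in check. Loss of SPINK5 in people causes Netherton syndrome, in which the barrier peels and becomes inflamed, and mice without Spink5 lose their barrier after birth.

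The 8 kallikrein genes lie close together on the forward strand of chromosome 7 (mm10), from Klk14 at position 43690418 to the end of Klk5 at 43851181, a stretch of 160764 bases. Cdsn lies on chromosome 17 at 35552128 to 35557180, also on the forward strand. The proteases differ in what they cut, and part of that difference can be read in the coding sequence around the catalytic serine. The stretches below come from GENCODE M21 transcripts, 12 codons each, 5′ to 3′. The first codon in capitals is the residue at the base of the pocket that holds the substrate, 6 codons before the catalytic serine, which is the second codon in capitals.
Klk5: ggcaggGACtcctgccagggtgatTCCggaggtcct
Klk6: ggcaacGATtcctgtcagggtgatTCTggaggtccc
Klk7: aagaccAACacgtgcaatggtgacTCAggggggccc
Klk8: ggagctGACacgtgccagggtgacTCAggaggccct
Klk10: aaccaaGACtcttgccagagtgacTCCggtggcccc
Klk11: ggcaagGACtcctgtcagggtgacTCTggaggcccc
Klk13: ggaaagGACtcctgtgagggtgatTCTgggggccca
Klk14: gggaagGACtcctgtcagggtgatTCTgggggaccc
In 7 of the 8 the pocket codon encodes aspartate, the mark of a trypsin-like protease that cuts after arginine or lysine. Klk7 has asparagine there, and it is known as a chymotrypsin-like protease.

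Total counts ran from 23209405 to 53357695 reads per library, and the targeted gene Npy had 3913 to 7686 reads in NPYtet libraries and 4 to 80 in WT libraries. NPYtet replicate 5 and WT replicate 2, both labelled male, stood apart. They had 19953 and 21144 genes with a read, against 24710 to 26323 in the other 8 libraries, and 4.40% and 1.67% of reads at a ribosomal RNA locus, against at most 0.406%. NPYtet replicate 5 also had 9.27% mitochondrial reads, against 1.86% to 3.03% in the other 9. NPYtet replicate 1 is labelled female but held 2 reads of Xist, which silences an X chromosome in females, and 1513 of the Y-linked gene Ddx3y. This library was kept under its label, or left out where stated, and no fit counted it as male. Males and females below are as labelled. Sex fold changes of the 10 genes are given with and without NPYtet replicate 1. In whole skin, fewer cells of a type and less RNA per cell cannot be told apart.

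The genes spanned a wide range of levels. CPM values are the reads of a gene relative to the reads of all tested genes in its library, scaled between libraries by the TMM method. They were divided by the kilobases of annotated exon (RPKM) to compare genes. Cdsn, the gene of a glycoprotein that glues the outermost cells, stood highest with Klk7, the gene of a protease that cuts it. Cdsn averaged 316 ± 133 RPKM in NPYtet and 378 ± 287 in WT, and Klk7 averaged 331 ± 115 in NPYtet and 356 ± 111 in WT (SD, n = 5 each). Klk10, a less studied family member, followed at 131 ± 54.4 RPKM in NPYtet and 156 ± 81.9 in WT. Spink5 was at 120 ± 72.5 RPKM in NPYtet and 74.6 ± 25.9 in WT. Klk5, which in human skin starts the cascade by activating itself, KLK7 and KLK14, was at 78.8 ± 9.37 RPKM in NPYtet and 74.8 ± 17.5 in WT. Klk6, known from brain and from inflamed epidermis, was at 72.7 ± 119 RPKM in NPYtet and 129 ± 156 in WT, so its order against Klk10, Spink5 and Klk5 was within the spread between mice. Klk8 (neuropsin) was at 40.1 ± 10.9 RPKM in NPYtet and 54.4 ± 32.3 in WT, and Klk11 at 39.9 ± 14.6 in NPYtet and 42.4 ± 11.1 in WT, a pair that also overlapped. Klk13 was far lower, at 3.94 ± 6.47 RPKM in NPYtet and 7.47 ± 5.82 in WT. Klk14, a strong trypsin-like protease in human skin, was lowest at 0.494 ± 0.202 RPKM in NPYtet and 1.17 ± 0.522 in WT, from 11 to 130 reads per library. An antisense gene, 2310002F09Rik, overlaps exons of Klk14 and Klk8 and had 7 to 182 reads. The strand setting of the counting is not given, so the counts of Klk14 and Klk8 are less certain than the others.

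Klk7 made up the largest share of kallikrein transcripts in every library. As a share of the summed RPKM of the 8 genes it took 39.5% to 54.8% in NPYtet libraries and 33.4% to 52.2% in WT libraries. Klk10 took 16.8% to 21.3% in NPYtet and 13.3% to 26.0% in WT. Klk6 varied most, from 1.25% to 25.4% in NPYtet and from 1.73% to 27.1% in WT.

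**Figure D1:**
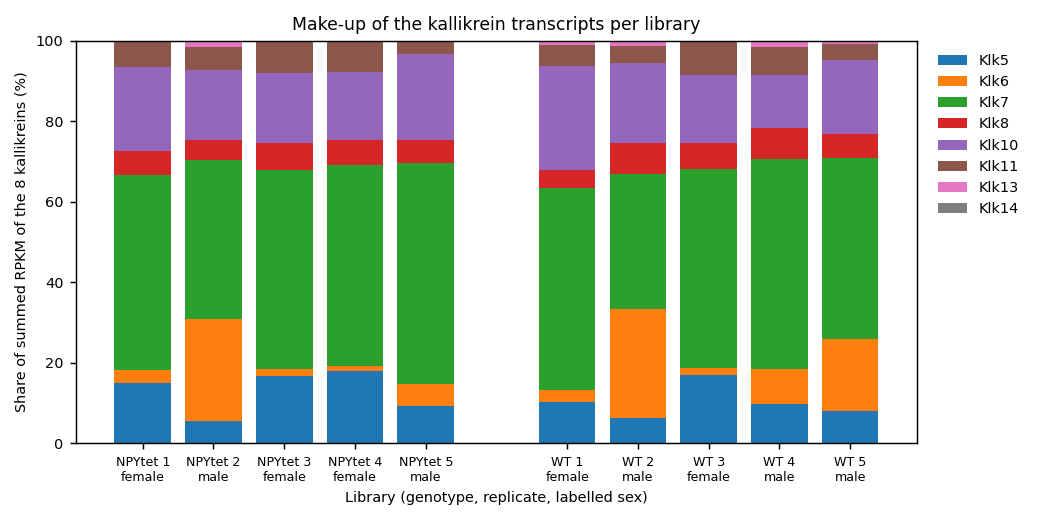
Stacked bars give each kallikrein's share (%) of the summed RPKM of the 8 genes in each of 10 libraries, NPYtet on the left and WT on the right, with the labelled sex. Klk7 is the largest part of every bar, and the Klk6 part reaches 25.4% in NPYtet replicate 2, 27.1% in WT replicate 2 and 17.9% in WT replicate 5.

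The design sets skin of NPYtet mice against that of WT siblings, and no shedding gene passed the test. In edgeR's quasi-likelihood test with a term for sex, 0 of the 10 genes passed an adjusted p of 0.05 over 18060 genes, where 0.00554% of all genes passed, and DESeq2 (0.194% of all genes) and limma voom (0.0111% of all genes) also called 0 of the 10. At an unadjusted p under 0.05 edgeR gave 1 of the 10 (Klk14), against 3.59% of all genes. The fold changes were positive for 3 genes and negative for 7, where 48.8% of all genes were positive, with a median log2 fold change of -0.10, beside -0.01 over all genes tested. For none of the 10 were the NPYtet and WT libraries free of overlap, against 0.305% of all genes.

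Klk14 and Klk13 had the most negative fold changes. Klk14 was at 0.639, 0.923, 0.254, 0.527 and 0.794 CPM in NPYtet replicates 1 to 5, against 1.86, 1.64, 0.423, 2.15 and 1.34 CPM in WT replicates 1 to 5. Each NPYtet library lay below 4 of the 5 WT libraries, and WT replicate 3 sat among the NPYtet libraries. Its log2 fold change was -1.13 (SE 0.48, edgeR unadjusted p = 0.0324, adjusted p = 0.999), and it stayed negative under all 19 alternatives, from -1.39 to -0.58, the last without WT replicate 1. None of these alternatives changed how reads shared with the antisense gene 2310002F09Rik were counted. That gene was at 4.197, 3.045 and 2.798 CPM in NPYtet replicates 3 and 4 and WT replicate 3, the lowest libraries for Klk14. It was at 1.833 CPM in WT replicate 1, where Klk14 was below only WT replicate 4. Its part in the Klk14 values was not tested. Klk13, a trypsin-like protease of stratified epithelia, was at 1.75, 35.4, 0.807, 1.51 and 5.76 CPM in NPYtet replicates 1 to 5, against 9.42, 37.6, 2.19, 16.0 and 20.7 CPM in WT replicates 1 to 5. NPYtet replicate 2 was close to the highest WT library, and the other 4 NPYtet libraries were below 4 of the 5 WT libraries. The Klk13 fold change in log2 units was -1.16 (SE 0.56; adjusted p = 0.999 in edgeR), and it was -2.10 without NPYtet replicate 2 and -0.42 without WT replicate 1. Genes of growing hair lay in the same direction. The summed level of 11 such genes, none of them at 0 in every library, was 9.74 to 12116 CPM in NPYtet and 292 to 25198 CPM in WT. All 11 had negative genotype fold changes and 0 passed the test. WT replicate 3, the lowest WT library for both kallikreins, also had the lowest WT sum of hair genes. Other libraries did not keep this order. NPYtet replicate 2, the highest NPYtet library for both, had a sum of 1405 CPM, below the 12116 CPM of NPYtet replicate 5. WT replicate 1 had the highest sum, 25198 CPM. Its Klk14 was below only WT replicate 4, but its Klk13 was below WT replicates 2, 4 and 5. The part of hair growth in the Klk13 and Klk14 values was not tested.

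Spink5, on the forward strand of chromosome 18 at 43963235 to 44022501 (mm10), had the most positive fold change of the 10. It was at 227, 254, 684, 631 and 1068 CPM in NPYtet replicates 1 to 5, against 387, 311, 553, 311 and 224 CPM in WT replicates 1 to 5. NPYtet replicates 3, 4 and 5 lay above every WT library, while NPYtet replicates 1 and 2 lay near the lowest. The log2 fold change was 0.68 (SE 0.43, edgeR adjusted p = 0.999), and without NPYtet replicate 5 (which stood apart) it was 0.04. Per length, Klk7 stood to Spink5 at a ratio of 5.53, 8.30, 1.69, 1.81 and 2.12 in NPYtet replicates 1 to 5, against 3.37, 7.06, 2.22, 4.62 and 10.6 in WT replicates 1 to 5. The Klk5 to Spink5 ratio averaged 0.900 ± 0.551 in NPYtet and 1.10 ± 0.497 in WT (SD, n = 5 each). Both ratios overlapped between the genotypes.

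The remaining members showed fold changes near 0. Klk5 had the least spread of the 10 genes, with 109, 83.6, 111, 116 and 107 CPM in NPYtet replicates 1 to 5, against 74.2, 117, 118, 74.6 and 116 CPM in WT replicates 1 to 5. Its log2 values had an SD of 0.27 over the 10 libraries, below the median of 0.62 over all 15171 genes with a mean of at least 1 CPM. The log2 fold change was 0.06 for Klk5 (SE 0.27), 0.02 for Klk7 (SE 0.28), -0.01 for Klk11 (SE 0.30), -0.06 for Cdsn (SE 0.41), -0.13 for Klk10 (SE 0.34), -0.16 for Klk8 (SE 0.30) and -0.29 for Klk6 (SE 0.55). For each of these 7 genes the edgeR adjusted p was 0.999, and each took both signs over the alternatives.

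**Figure D2:**
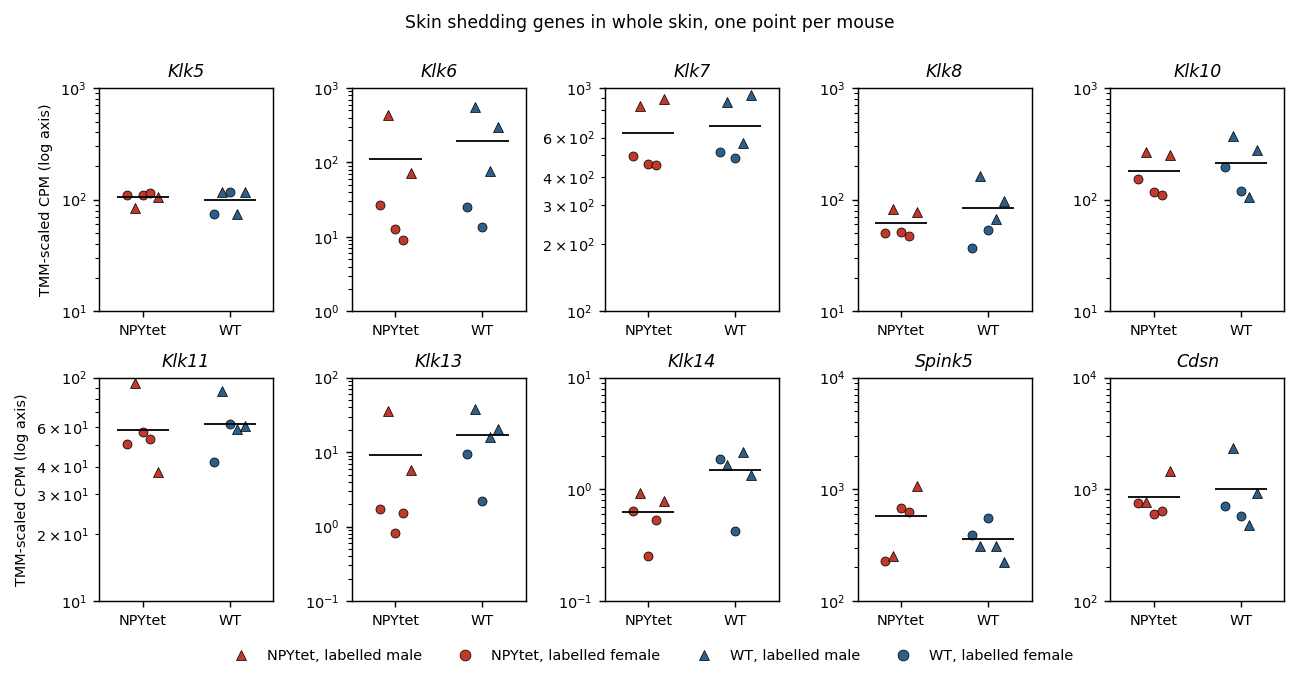
Each panel gives TMM-scaled CPM on a log axis for 1 gene, with 1 point per mouse, NPYtet on the left and WT on the right; triangles are labelled male, circles labelled female, and the line is the mean of 5 libraries. The genotypes overlap in every panel, and for Klk6 all triangles (72.3 to 563 CPM) lie above all circles (9.05 to 26.8 CPM).

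Klk6 and Klk13 were higher in skin of mice labelled male. Both passed the edgeR test for sex over all genes, in the fit that also holds genotype, where 2.48% of all genes passed in either direction and 1.36% were higher in males. Of the 10 genes, 2 were called higher and 0 lower, and 5 had an unadjusted p under 0.05, against 24.6% of all genes. All 5 were higher in males, against 13.1% of all genes. Fold changes were positive for 8 of the 10, against 46.2% of all genes, with a median of 0.81 on the log2 scale, beside -0.07 over all genes.

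Klk6 was at 429 and 72.3 CPM in NPYtet males (replicates 2 and 5) and at 563, 76.1 and 297 CPM in WT males (replicates 2, 4 and 5), against 26.8, 12.7 and 9.05 CPM in NPYtet females (replicates 1, 3 and 4) and 25.5 and 13.6 CPM in WT females (replicates 1 and 3). Every library labelled male was above every library labelled female in both genotypes, and NPYtet replicate 1, with its Y-linked reads, was the highest of those labelled female. The mean was 287 ± 216 CPM in males and 17.5 ± 8.05 CPM in females (SD, n = 5 each), and the log2 fold change was 3.98 (SE 0.61, edgeR adjusted p = 0.00751). The call held under all 17 alternatives, with adjusted p between 1.97e-19 and 0.0357. Without NPYtet replicate 1, whose reads go against its label, the log2 fold change was 4.29, and without it and the 2 libraries that stood apart it was 4.17 (edgeR adjusted p = 0.0139).

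Klk13 was at 35.4 and 5.76 CPM in NPYtet males and at 37.6, 16.0 and 20.7 CPM in WT males, against 1.75, 0.807 and 1.51 CPM in NPYtet females and 9.42 and 2.19 CPM in WT females. The sexes overlapped through WT replicate 1 among the females and NPYtet replicate 5 among the males. The log2 fold change was 2.998 (SE 0.59, edgeR adjusted p = 0.0211). It was 3.02 without NPYtet replicate 1, still past the threshold. That library, with its Y-linked reads, was at 1.75 CPM, below every WT library labelled female. A fit that counts it as male was not run. The call was lost without WT replicate 2 (2.94, edgeR adjusted p = 0.0675), WT replicate 3 (2.84, adjusted p = 0.0831), NPYtet replicate 3 (2.77, adjusted p = 0.0628) or NPYtet replicate 4 (2.91, adjusted p = 0.0686), and without NPYtet replicate 1 and the libraries that stood apart (3.10, adjusted p = 0.0718).

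Klk8 and Klk7 also showed no overlap between the sexes, as did 8.44% of all genes (3.06% with males higher), but did not pass. This separation depends on the label of NPYtet replicate 1, which lay below WT replicate 3, labelled female, for Klk8 (50.7 against 53.3 CPM) and below WT replicate 1, labelled female, for Klk7 (498 against 517 CPM). Klk8, a protease induced in wounded mouse epidermis, ran from 67.4 to 163 CPM in males and from 36.9 to 53.3 CPM in females. Its log2 fold change was 0.98 (SE 0.30, edgeR adjusted p = 0.0886). Klk7 ran from 569 to 934 CPM in males and from 451 to 517 CPM in females, and its log2 difference was 0.77 (SE 0.28; adjusted p = 0.123 in edgeR). Klk10 had 0.85 (SE 0.34, adjusted p = 0.148) and Cdsn 0.86 (SE 0.41, adjusted p = 0.218) in edgeR. Cdsn reached 1470 CPM in NPYtet replicate 5 and 2354 CPM in WT replicate 2, the libraries that stood apart, against 478 to 932 CPM in the other 8, and without WT replicate 2 its log2 fold change was 0.47. Klk14 had 0.72 (SE 0.47), Klk11 0.36 (SE 0.30), Klk5 -0.07 (SE 0.27) and Spink5 -0.19 (SE 0.43), where without NPYtet replicate 5 the Spink5 value was -0.80. DESeq2 called Klk7 (adjusted p = 0.025) and Klk8 (adjusted p = 0.0233) as well. Without WT replicate 4 edgeR called 5 of the 10, with Klk7, Klk8 and Klk10 added. Its sex calls over all genes then rose from 448 to 2725. Limma voom, which weighs each library by its quality, called 6 of the 10, against 31.0% of all genes: Klk6, Klk7, Klk8, Klk10 and Klk13 higher in males, and Spink5 lower in males (-1.02, limma voom adjusted p = 0.0252). The share of all genes called by DESeq2 was 12.9%. Without NPYtet replicate 1, edgeR called the same number of the 10 genes, 2. The log2 fold changes were then 1.06 for Klk8 (adjusted p = 0.0941), 0.82 for Klk7 (adjusted p = 0.153), 0.95 for Klk10 (adjusted p = 0.15) and 0.96 for Cdsn (adjusted p = 0.209) in edgeR. They were 0.87 for Klk14, 0.39 for Klk11, -0.02 for Klk5 and -0.37 for Spink5.

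**Figure D3:**
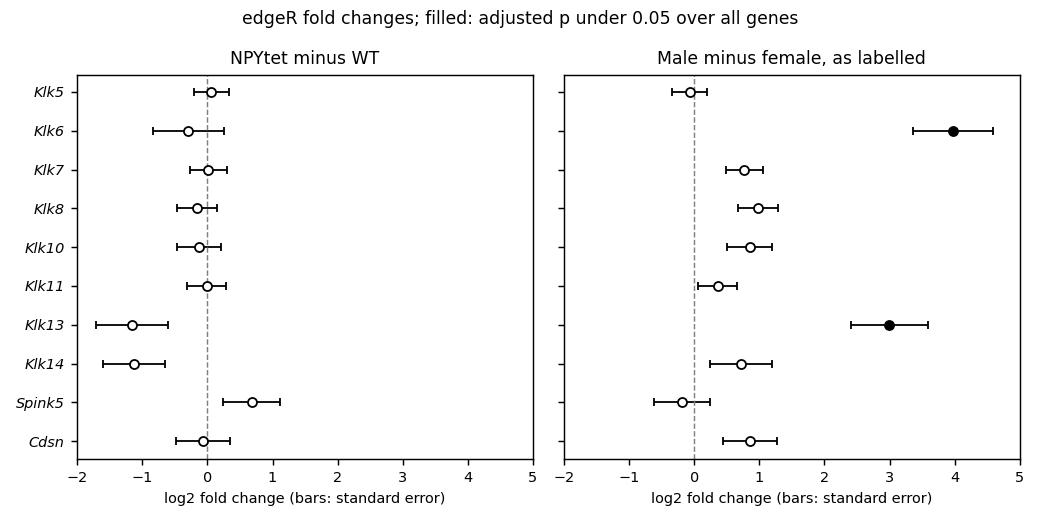
Points give edgeR log2 fold changes of the 10 genes and bars their standard errors, NPYtet minus WT on the left and male minus female on the right; filled points have an adjusted p under 0.05 over all genes. Only Klk6 (3.98) and Klk13 (2.998) are filled, both for sex.

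Stress keratins, which epidermis makes when wounded or inflamed, separated the labelled sexes as a sum, as Klk6 did. The summed level of Krt6a, Krt6b, Krt16 and Krt17 was 3970 to 37758 CPM in males and 1181 to 2488 CPM in females, and all 4 genes had positive male minus female fold changes, with none at 0 in every library. Krt17, the largest of the 4 in every library, overlapped between the sexes. It was at 2222 CPM in WT replicate 1, labelled female, and at 1974 CPM in WT replicate 4, labelled male. NPYtet replicate 1, with its Y-linked reads, had a sum of 1811 CPM, below that of WT replicate 1, labelled female. The separation of the sums, like that of Klk8 and Klk7, therefore depends on its label. For Klk6 it was just above WT replicate 1 (26.8 against 25.5 CPM), so the Klk6 separation holds under either label. For sex, edgeR gave Krt6a 4.66 in log2 units (SE 0.68, adjusted p = 0.00536) and Krt16 6.46 (SE 0.88, adjusted p = 0.0047), both called under all 17 alternatives. Krt17 had 2.34 (SE 0.53, adjusted p = 0.0345) and was not called without WT replicate 2 or 3, or NPYtet replicate 3, 4 or 5 (1.93 to 2.33, edgeR adjusted p = 0.0753 to 0.134), nor without NPYtet replicate 1 and the libraries that stood apart (1.46, edgeR adjusted p = 0.0731). Krt6b had 10.1 (SE 2.35, edgeR adjusted p = 0.0714), and it was called without NPYtet replicate 1 (11.9, adjusted p = 0.0291), without that library and those that stood apart (11.8, adjusted p = 0.00323), by DESeq2 (10.2, adjusted p = 1.43e-08) and by limma voom (11.5, adjusted p = 0.000955). Without NPYtet replicate 1, Krt6a had 4.81, Krt16 6.99 and Krt17 2.42, all called by edgeR. Krt6a was also the gene whose log2 CPM followed Klk6 most closely over the 10 libraries, with Pearson's r of 0.992 among 13670 genes searched (a mean of at least 1 CPM and a full gene symbol), or 0.986 without the 2 libraries farthest from the Klk6 median. Basal keratinocyte markers summed to 10571 to 59628 CPM in males and 7611 to 13484 CPM in females, and suprabasal markers to 12630 to 18442 CPM in males and 9752 to 23517 CPM in females. The 11 growing hair genes, keratins and Tchh (trichohyalin), summed to 1405 to 23930 CPM in males and 9.74 to 25198 CPM in females. The part of these cells and states in the sex difference was not tested.

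**Figure D4:**
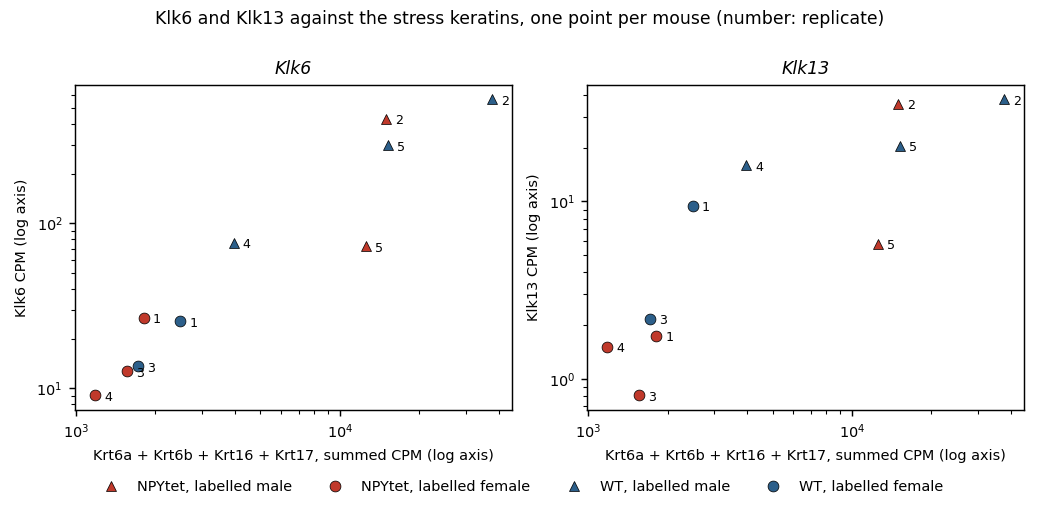
Klk6 (left) and Klk13 (right) CPM are plotted against the summed CPM of Krt6a, Krt6b, Krt16 and Krt17 on log axes, 1 point per mouse, with colour for genotype, shape for labelled sex and the replicate number beside it. Males with the most stress keratin (NPYtet replicate 2, WT replicates 2 and 5) are also highest for Klk6, at 429, 563 and 297 CPM. NPYtet replicate 5 has a sum of 12547 CPM, near the 14933 CPM of NPYtet replicate 2, but Klk6 at 72.3 CPM.

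The genotype difference was not shown to depend on sex for any of the 10 genes. With each genotype and sex combination fitted as its own group, 0 of the 10 genes, and 0% of all genes, passed edgeR's test of the difference between the genotype effects. None of the 10 had an unadjusted p under 0.05, against 1.63% of all genes, and DESeq2 and limma voom called 0 of the 10, as did edgeR without NPYtet replicate 1. Klk13 had the largest difference: its NPYtet minus WT log2 fold change was -0.26 (SE 0.75) in males and -2.10 (SE 0.75) in females, a difference of 1.84 (SE 1.04, edgeR adjusted p = 1.0). Spink5 had 1.23 (SE 0.61) in males and 0.13 (SE 0.62) in females, a difference of 1.10 (SE 0.86, adjusted p = 1.0 in edgeR). In NPYtet males Spink5 was at 254 CPM in replicate 2, within the WT males (224 to 311 CPM). Replicate 5, which stood apart, was at 1068 CPM. NPYtet females were at 227, 684 and 631 CPM in replicates 1, 3 and 4, and replicate 1 holds the Y-linked reads. WT females were at 387 and 553 CPM. The Klk13 value in females also counts NPYtet replicate 1. Fold changes within each sex were not taken without these libraries.

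Members correlated with each other over the libraries to differing degrees. Of the 45 pairs of members, 35 had a positive Pearson's r of log2 CPM, with a median of 0.38. The share of positive pairs among other genes was not taken, so this count cannot be read as particular to the members. The closest pairs were Klk6 with Klk13 (0.916) and Klk6 with Klk7 (0.902), and the most opposed were Klk5 with Klk14 (-0.582) and Klk13 with Spink5 (-0.542). Outside the set, the genes with the highest r were Krt6a (0.992) and Slc10a6 (0.988) for Klk6, Ddx39 (0.977) and Ccne1 (0.971) for Klk13, and Psmb2 (0.981) and Sra1 (0.975) for Klk7. For Klk8 they were Mrpl17 (0.981) and Cbr3 (0.972), for Klk10 Tax1bp3 (0.959) and Dnph1 (0.954), and for Klk11 Ltb4r1 (0.944) and Pik3r5 (0.939). For Klk5 they were Mcf2l (0.953) and Susd2 (0.946), for Klk14 Otub2 (0.957) and Slc7a8 (0.95), for Spink5 Zfp991 and Zfp992 (0.962 each), and for Cdsn Sesn2 (0.994) and Plscr3 (0.99). Each of these genes was picked as one of the highest among 13670 searched. Without the 2 libraries farthest from the member's median, their r ran from 0.878 (Klk5 with Susd2) to 0.989 (Klk13 with Ddx39). All these values describe 10 libraries that also share differences in depth, in labelled sex and in how many genes were detected.

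Other genes of the shedding pathway did not pass by genotype either. Of 18 further kallikrein genes, 2 could be tested: Klk9, at a log2 fold change of 0.22 (SE 0.36), and Klk12, at 0.14 (SE 0.51). The 16 untested ones reached at most 1.90 CPM, and 4 of them had 0 reads in all 10 libraries, which allows up to 3 reads in each. Klk9 was higher in males (log2 fold change 1.52, SE 0.36, edgeR adjusted p = 0.0431; 1.61 and adjusted p = 0.0446 without NPYtet replicate 1). That call was lost when any 1 of WT replicates 1, 2, 3 and 5 or NPYtet replicates 2, 3 and 4 was left out (1.29 to 1.67, edgeR adjusted p = 0.0687 to 0.132). Of the other proteases of the cascade and of filaggrin processing, 10 of 11 were tested, with 5 positive, 5 negative and 0 called. Casp14, a caspase of cornifying cells, averaged 56.2 ± 15.4 CPM in NPYtet and 114 ± 81.1 in WT, with a log2 fold change of -1.05 (SE 0.49). St14, matriptase, which can start the kallikrein cascade in mice without Spink5, had -0.69 (SE 0.36). Both had an edgeR adjusted p of 0.999.

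Among other protease inhibitors, 7 of 9 were tested, 5 with positive and 2 with negative genotype fold changes, and 0 were called. Spint1, an inhibitor of matriptase, averaged 66.2 ± 10.6 CPM in NPYtet and 134 ± 45.4 in WT (SD, n = 5 each), with -0.92 as log2 fold change (SE 0.29; unadjusted p = 0.0065 and adjusted p = 0.999 in edgeR). Over the 4 pathway lists, with 2, 10, 7 and 9 genes tested, Spint1 was the 1 gene with an edgeR unadjusted p under 0.05 by genotype. Over all genes the share was 3.59%. Wfdc5 averaged 34.2 ± 7.97 CPM in NPYtet and 23.9 ± 7.74 in WT, with 0.58 (SE 0.29; adjusted p = 0.999 in edgeR). Serpina12 (vaspin), an inhibitor of KLK7, averaged 125 ± 54.1 CPM in NPYtet and 75.5 ± 45.9 in WT, with 0.51 (SE 0.33). Slpi, a leukocyte protease inhibitor that also acts on kallikreins, had a genotype log2 fold change of 0.71 (SE 0.65). Its male minus female value was 4.48 in log2 units (SE 0.72; adjusted p = 0.00922 in edgeR). The Slpi value was 4.81 without NPYtet replicate 1 (edgeR adjusted p = 0.00763). The Slpi call was lost without WT replicate 3 (4.38, edgeR adjusted p = 0.0528) or NPYtet replicate 2 (3.82, adjusted p = 0.0556). Of 9 corneodesmosome and filaggrin genes, all tested, 4 were positive and 5 negative with 0 called. Flg2 had 0.87 (SE 0.47) and Dsg1a, a desmoglein 1 gene, 0.59 (SE 0.38), and without NPYtet replicate 5 these were 0.19 and 0.11. Flg and Dsg1c went the other way, at -0.79 (SE 0.535) and -0.91 (SE 0.714). Dsg1c averaged only 0.345 CPM in NPYtet and 0.596 CPM in WT.

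**Figure D5:**
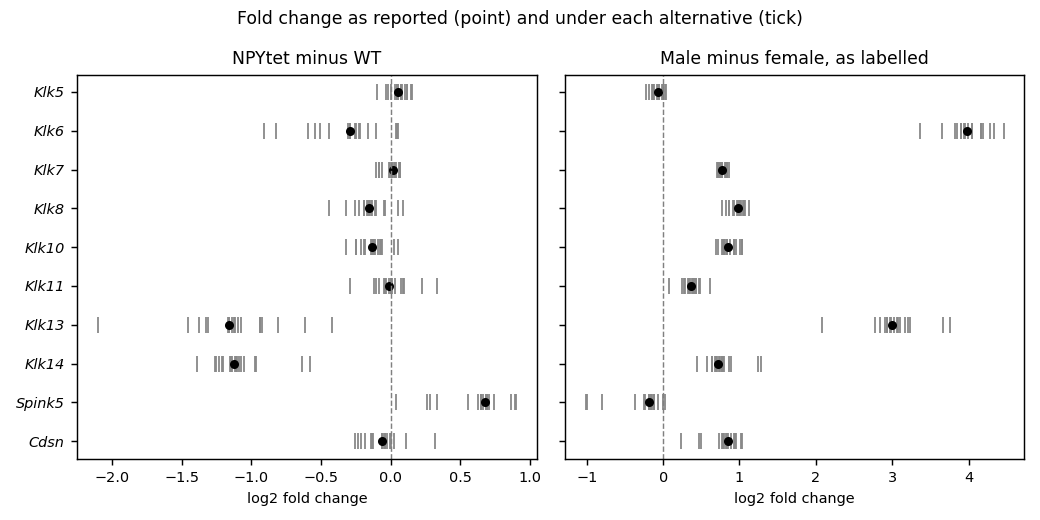
For each of the 10 genes the point is the edgeR log2 fold change as reported and the ticks are its values under each alternative processing or with libraries left out, NPYtet minus WT on the left and male minus female on the right. Klk13 and Klk14 stay below 0 and Spink5 above 0 by genotype, while by sex the Klk6 values stay between 3.37 and 4.46.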

How the data were processed

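RNA of whole skin from 10 mice was sequenced as paired reads after poly(A) selection with a directional kit, per the labels' protocols. The deposited files hold the authors' raw read counts per Ensembl gene and library on mm10. The submitters' processing notes name STAR 2.5.2, Trimmomatic 0.36, FastQC 0.11.8, bcl2fastq and DESeq2 1.30.1. The sources used here give neither the annotation release nor the strand setting. Gene IDs were named with GENCODE M21 (49412 of 49671 matched). Genes were kept by edgeR's filterByExpr (minimum count 10, minimum total 15), which left 18060. They were scaled by TMM and tested with edgeR 4.0.16 (robust quasi-likelihood, terms for genotype and labelled sex, Benjamini-Hochberg over all genes, threshold 0.05) in R 4.3.3. DESeq2 1.42.0 and limma 3.58.1 (voom with quality weights) were alternatives, beside other scalings, other filters and leaving out libraries. Log2 CPM used a prior count of 2. The code was tested on simulated data. No libraries were duplicates: all 20 pairs within groups differed beyond sampling noise. All 10 genes were described. Up to 4 genes of each pathway list were named by the smallest genotype p, and for each member the 2 genes with the highest correlation. Members and lists were chosen with earlier results of these data known. P-values measure the spread between mice.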

Additional observations from a re-analysis of the deposited data

Results flagged for a closer look

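In 5 of the 20 sets of 5 libraries (10 genes in 2 genotypes), the highest or lowest library stood off from the other 4 beyond Dixon's critical value of 0.71. Chance gives about 1 in 20 for independent sets of like samples. These sets share the same mice, and each pools labelled males and females, so their count cannot be set against that rate. NPYtet replicate 2 was highest among NPYtet libraries for Klk6 (429 CPM) and Klk13 (35.4 CPM), and lowest for Klk5 (83.6 CPM). Cdsn was highest in NPYtet replicate 5 among NPYtet libraries (1470 CPM) and in WT replicate 2 among WT libraries (2354 CPM), the libraries with the fewest genes detected. NPYtet replicate 2 also had the highest stress keratin sum among NPYtet libraries, 14933 CPM. Whether these features account for the values was not tested.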

How the results depend on the processing

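None of the 10 genes was called by genotype under any of 19 alternatives, and their median log2 fold change ran from -0.253 to 0.046. Calls by genotype over all genes (1 as reported) were 35 with DESeq2, 2 with limma voom, 409 with no filter on low counts, 0 without WT replicate 2 and NPYtet replicates 1 and 5, and 1 to 8 with any 1 library left out, with 8 without WT replicate 3. Interaction calls (0) were 2 with DESeq2, 217 with no filter and 0 to 108 with any 1 library left out. Calls by sex (448) were 2316 with DESeq2, 5590 with limma voom, 2380 with no filter, 949 without the 3 libraries, and 58 (without WT replicate 3) to 2725 (without WT replicate 4). Members called by sex (2) were 4 with DESeq2, 6 with limma voom, 1 without the 3 libraries and 1 to 5 with any 1 left out.

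Genotype log2 fold changes near 0 changed sign. With upper-quartile scaling Cdsn had 0.0014 and Klk11 0.029. Klk11 also had 0.0001 with DESeq2, 0.078 with limma voom and 0.00028 with no filter, and Klk7 had -0.086 with limma voom. With no sex term Klk7 had -0.105, Klk9 -0.175 and Klk12 -0.334. Without the 3 libraries Cdsn had 0.022, Klk6 0.054, Klk7 -0.0083, Klk8 0.091, Klk9 0.639, Klk11 0.336 and Klk12 0.575, and Spink5 had -0.998 by sex. With any 1 library left out, Cdsn ran from -0.236 to 0.317, Klk5 from -0.096 to 0.155, Klk6 from -0.907 to 0.047, Klk7 from -0.083 to 0.067, Klk8 from -0.321 to 0.05, Klk9 from -0.001 to 0.474, Klk10 from -0.318 to 0.056, Klk11 from -0.293 to 0.225 and Klk12 from -0.082 to 0.482. By sex, Klk5 ran from -0.223 to 0.034 and Spink5 from -0.795 to 0.029. The cause was not tested.

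Same-numbered libraries did not pair: their deviations correlated at -0.256 to 0.644, and 0 of 5 numbers matched best with their own. With the replicate number as a block, 1 gene was called by genotype over all genes and 0 of the 10 members, and Klk5 had -0.036, Klk7 -0.065 and Klk12 -0.084. The block was not run for sex or the interaction. Klk14 rests on few reads, so its depth limits it most.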
